A study of Homo sapiens with 32 samples.

Results

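Origin licensing loads the replicative helicase onto DNA before S phase. The 10 genes described here encode its core machinery. They are ORC1, CDC6, CDT1, GMNN and the helicase subunits MCM2, MCM3, MCM4, MCM5, MCM6 and MCM7, taken by symbol from the 29744 genes of the deposited table, and all 10 passed the filter on low counts. Polyadenylated RNA was sequenced from 32 libraries of 2 human prostate cancer lines, C4-2B, which is castration-resistant, and its androgen-sensitive parent LNCaP. In each line, cells received siRNA against MOCOS (siMOCOS) or a control siRNA (siCTRL), and each was given thapsigargin (TG) or vehicle. This gives 8 groups of 4 libraries: siMOCOS with TG, siCTRL with TG, siMOCOS alone and siCTRL alone, within each line. MOCOS encodes the enzyme that adds sulfur to the molybdenum cofactor of xanthine dehydrogenase and aldehyde oxidase. TG blocks the calcium pump of the endoplasmic reticulum (ER) and causes ER stress. No source used here states how much TG was given or for how long. MOCOS was targeted with 2 siRNAs, each used for 2 libraries per line and drug, but the knockdown columns do not name the siRNA. The 4 knockdown libraries of a group were therefore pooled, and their replicate number is the number of the column. Replicates are described as biological. Each line is a single culture model of prostate cancer.

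In late mitosis and G1, the origin recognition complex, with its regulatory subunit ORC1, binds DNA and recruits the ATPase CDC6. CDC6 and CDT1 then load the ring of MCM2 to MCM7 as an inactive double hexamer. Geminin (GMNN) holds CDT1 and so prevents a second round of loading in S and G2, and many of these genes are textbook targets of the E2F factors, which drive transcription at the G1 to S transition.

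Promoter sequences show what several of these genes share in their DNA. RefSeq promoters on GRCh38.p14 could be matched for 8 of the 10 genes, all but MCM4 and MCM5. An E2F-type octamer (TTTCCCGC, TTTGGCGC, TTTCGCGC or TTTGCCGC, on either strand, with overlaps allowed) occurred in 6 of the 8 promoters, in the window from 250 bases before to 50 bases after the start. The same octamers occurred in 4.15% of the 15841 promoters of genes in the deposited table and in 3.33% of all 27305 promoters. The 6 promoters are shown as 140 bases each, from 120 bases before the start to 20 after it, 5′ to 3′ on the gene's strand, with the octamers in capitals. MCM2 (chr3:127598291-127598430, plus strand) and MCM6 (chr2:135876424-135876563, minus strand) each carry a pair of overlapping octamers on opposite strands, which read as 1 longer run of capitals. CDT1 (chr16:88803669-88803808, plus strand) carries its octamer on the opposite strand. The others are MCM3 (chr6:52284723-52284862, minus strand), MCM7 (chr7:100101378-100101517, minus strand) and CDC6 (chr17:40287759-40287898, plus strand).
CDC6: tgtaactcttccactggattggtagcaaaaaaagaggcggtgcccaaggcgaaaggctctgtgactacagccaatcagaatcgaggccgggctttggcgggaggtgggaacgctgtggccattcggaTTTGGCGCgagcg
CDT1: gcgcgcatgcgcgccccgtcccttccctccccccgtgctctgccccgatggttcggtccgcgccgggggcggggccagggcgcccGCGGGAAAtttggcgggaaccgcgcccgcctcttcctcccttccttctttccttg
MCM2: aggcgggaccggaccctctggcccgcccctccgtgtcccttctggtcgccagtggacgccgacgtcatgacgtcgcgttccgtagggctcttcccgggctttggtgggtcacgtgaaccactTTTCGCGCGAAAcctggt
MCM3: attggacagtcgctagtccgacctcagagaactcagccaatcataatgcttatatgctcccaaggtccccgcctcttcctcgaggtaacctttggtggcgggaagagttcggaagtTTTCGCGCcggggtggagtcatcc
MCM6: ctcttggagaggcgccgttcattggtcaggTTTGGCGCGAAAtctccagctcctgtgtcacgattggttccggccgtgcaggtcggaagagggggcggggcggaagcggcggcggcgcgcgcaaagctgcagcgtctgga
MCM7: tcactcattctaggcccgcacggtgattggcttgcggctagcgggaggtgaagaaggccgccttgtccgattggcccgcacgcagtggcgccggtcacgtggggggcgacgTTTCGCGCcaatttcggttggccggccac

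MCM3, MCM6 and MCM7 hold further octamers before the printed stretch. In the promoters of ORC1 and GMNN none of these letters was found in the window. CCAAT, the letters of the NF-Y box, occurred in 5 of the 8 promoters and in 36.3% of those of genes in the table. The cell cycle homology element (TTTGAA or TTCGAA) occurred in 1 of the 8 promoters, that of MCM6, and in 13.7% of those of genes in the table. These matches describe letters and are not evidence of binding.

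Library totals ranged from 7507226 to 27088570 counts over the 8 groups. The lowest count of any of the 10 genes in a library was 23, for CDT1, and the highest was 7139, for CDC6. Levels are given as CPM, the counts scaled to library size with TMM factors over all 32 libraries, and log2 fold changes come from edgeR fits of each line. The knockdown could be seen in MOCOS itself. With TG it averaged 14.8 ± 4.38 CPM in siMOCOS and 89.4 ± 2.68 CPM in siCTRL cells of C4-2B, and 14.3 ± 4.11 against 96.1 ± 5.11 CPM in LNCaP (SD, n = 4 each). Without TG it averaged 3.42 ± 1.06 against 31.5 ± 2.05 CPM in C4-2B, and 3.75 ± 0.296 against 24.3 ± 0.680 CPM in LNCaP. The prostate luminal marker KLK3 was present in all libraries, at 27.1 to 2289 CPM. The 11 markers of other cell types that were in the table summed to 6.64 to 45.5 CPM per library, with 7 or 8 of them averaging under 1 CPM in each group. CHGA, COL1A2, PTPRC and CD14 averaged under 0.1 CPM in every group. With TG, 4 of the 4 tested markers of this list (COL1A1, SYP, VWF and TP63) were called higher in C4-2B and 3 in LNCaP, in siMOCOS as in siCTRL cells. Of all genes, 20.7% and 21.2% were called higher in siMOCOS and siCTRL cells of C4-2B, and 25.1% and 24.6% in LNCaP. Of the 9 luminal markers, 5 were called lower with TG in each siRNA state of C4-2B and 6 in each of LNCaP. Between 0 and 2 of them were called higher. Of all genes, 17.2% and 19.3% were called lower in siMOCOS and siCTRL cells of C4-2B, and 21.9% and 25.1% in LNCaP. Libraries of 1 group differed in how their deviations followed the GC content of transcripts. The correlation across genes was over 0.45 in size in 5 libraries, at -0.53 and 0.47 in C4-2B siMOCOS with TG replicates 3 and 2, -0.65 and 0.53 in C4-2B siCTRL replicates 1 and 4, and 0.48 in LNCaP siCTRL with TG replicate 2. Deviations within a group are relative to each other, so 1 alternative left out the strongest library of each of these groups (3 libraries) and another left out all 5, both chosen after seeing the data.

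**Figure D1:**
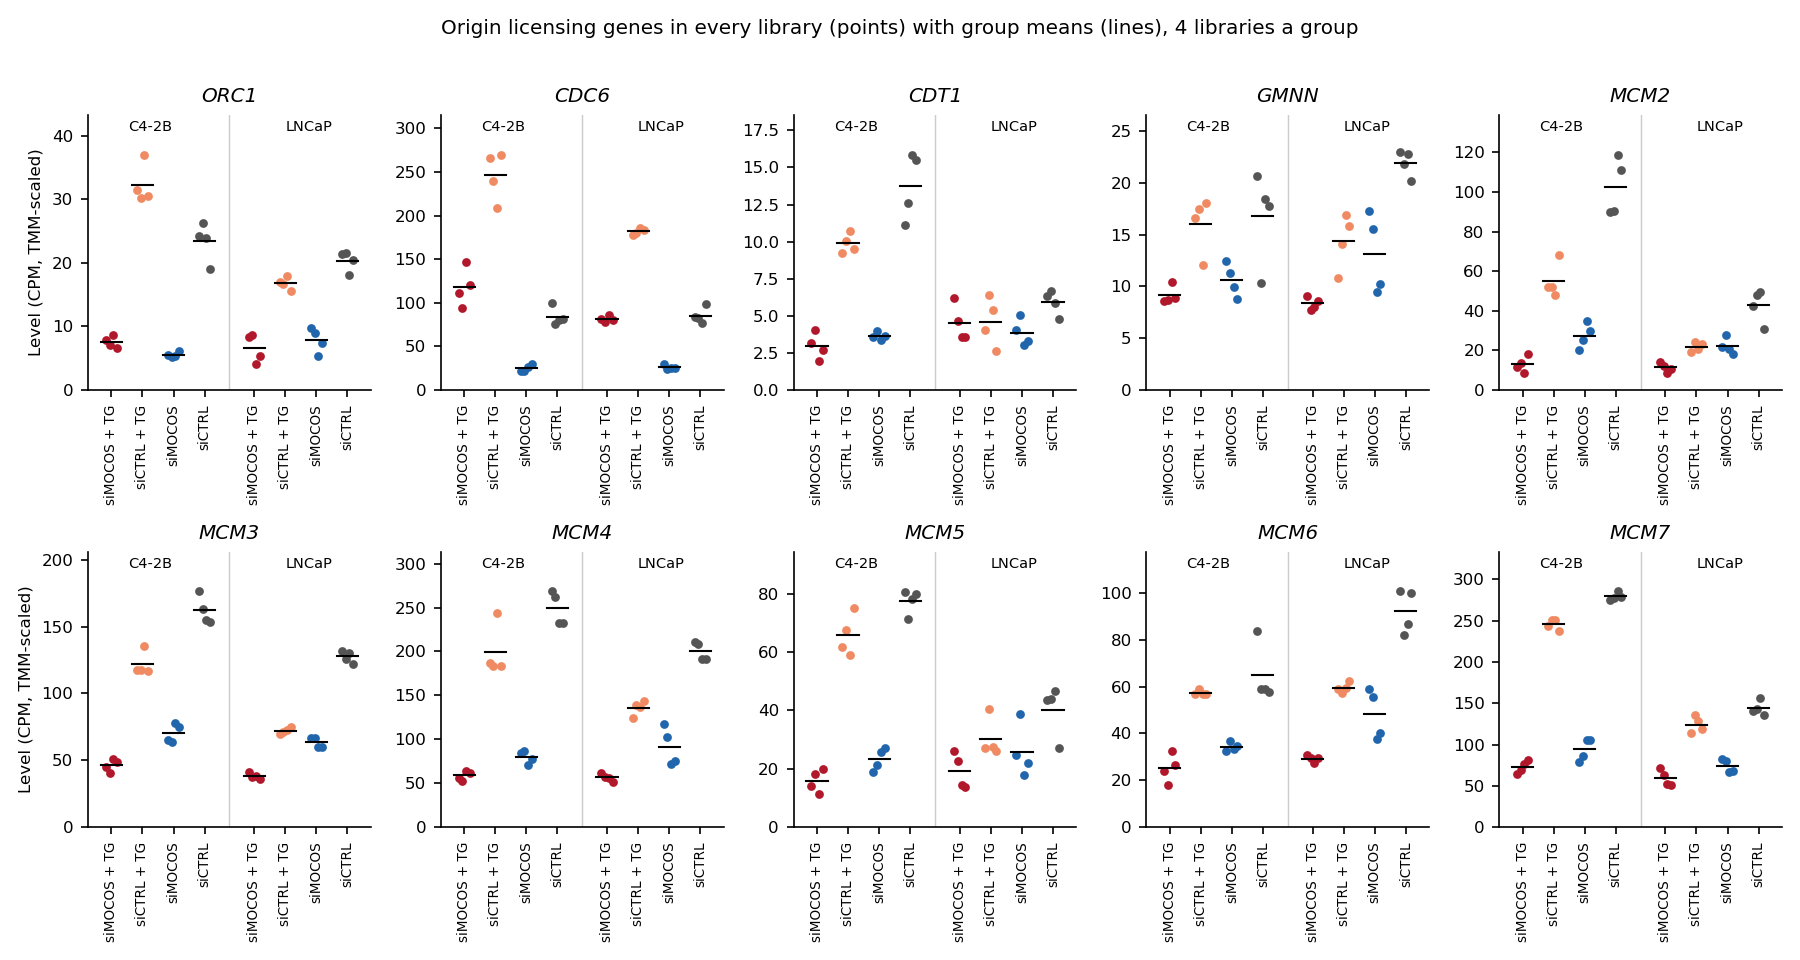
Level of each gene in CPM (y axis from 0) in the 4 libraries of each group (points), with the group mean as a line. In C4-2B the siMOCOS libraries lie under the siCTRL libraries with the same drug for 10 of the 10 genes with TG and for 9 without TG, and CDC6 is higher with TG in every pair of groups.

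MOCOS knockdown was accompanied by lower mRNA of the licensing genes in both lines. In C4-2B all 10 were called lower with TG and all 10 without TG, at an edgeR adjusted p under 0.05 over all genes tested. Of the 14127 genes tested there, 7.6% were called lower with TG and 8.14% without TG. In LNCaP 8 of 10 were called lower with TG and 8 of 10 without TG, where 10.2% and 9.73% of the 13806 genes tested were called lower. None of the 10 was called higher, against 9.21% and 9.09% of genes in C4-2B with and without TG and 11.7% and 6% in LNCaP. None was higher at an unadjusted p under 0.05 in any of the 4 knockdown comparisons, and DESeq2 and limma voom called none higher either. Their median log2 change was -1.72 with TG and -1.70 without TG in C4-2B, and -0.96 and -0.97 in LNCaP, while the medians of all genes tested lay between -0.02 and 0.01. In C4-2B the siMOCOS libraries lay under all siCTRL libraries for 10 of the 10 genes with TG (11% of all genes) and for 9 of the 10 without TG (10.7%). With GC content and length corrected per library, an alternative chosen after seeing the data, all 10 were called lower with TG and all 10 without in C4-2B, and 9 and 10 in LNCaP. Without the 3 libraries that followed GC content most strongly in their group, the counts were 10 with TG and 9 without in C4-2B, and 8 and 8 in LNCaP. Without all 5 libraries over 0.45, 9 were called lower with TG and 9 without in C4-2B, and GMNN was the 1 not called in each (log2 -0.86 with TG and -0.44 without, adjusted p = 0.0524 and 0.272). This leaves 2 libraries in each of 2 C4-2B groups. The comparisons with and without TG come from 1 fit per line. In bulk RNA, fewer cells at a stage of the cell cycle and less mRNA per cell cannot be told apart.

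ORC1, the subunit of the origin recognition complex whose level varies over the cell cycle (chr1:52372829-52404459, minus strand, GRCh38), had the lowest fitted log2 change of the 10 in C4-2B. With TG it had 7.87, 7.11, 8.60 and 6.65 CPM in the 4 siMOCOS libraries, against 31.4, 30.3, 37.0 and 30.6 CPM in the siCTRL libraries (log2 -2.07, SE 0.137, adjusted p = 3.81e-08). Without TG it had 5.58, 5.23, 5.35 and 6.10 CPM in siMOCOS, against 24.3, 26.2, 24.0 and 19.04 CPM in siCTRL (log2 -2.08, SE 0.139, adjusted p = 4.48e-08). The siMOCOS libraries were all far under the siCTRL libraries, at about the same fold with either drug state. In LNCaP with TG, ORC1 had 8.34, 8.63, 4.15 and 5.38 CPM in siMOCOS and 17.0, 16.6, 17.997 and 15.6 CPM in siCTRL libraries (log2 -1.31, SE 0.2001, adjusted p = 0.000194). Without TG the LNCaP values were 9.73, 8.94, 5.34 and 7.43 CPM in siMOCOS and 21.3, 21.5, 18.1 and 20.4 CPM in siCTRL libraries (log2 -1.39, SE 0.205, adjusted p = 0.00018). The LNCaP groups did not overlap, although siMOCOS columns 1 and 2 lay above columns 3 and 4 in both drug states.

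CDC6, the loader (chr17:40287633-40304657, plus strand), fell with knockdown in every setting. In C4-2B with TG it had 111, 93.6, 146 and 121 CPM in siMOCOS libraries, against 266, 239, 209 and 269 CPM in siCTRL libraries (log2 -1.03, SE 0.147, adjusted p = 7.47e-05). Without TG it had 21.8, 21.7, 26.9 and 29.6 CPM in siMOCOS, against 99.7, 76.0, 80.2 and 81.0 CPM in siCTRL (log2 -1.76, SE 0.152, adjusted p = 3.79e-07). No siMOCOS library reached the level of a siCTRL library with the same drug. In LNCaP with TG it had 81.1, 77.9, 85.8 and 80.1 CPM in siMOCOS and 178, 180.5, 186 and 183 CPM in siCTRL libraries (log2 -1.14, SE 0.0879, adjusted p = 2.45e-07). LNCaP cells without TG had 29.3, 24.4, 25.4 and 24.7 CPM in siMOCOS, against 83.9, 82.3, 76.5 and 98.1 CPM in siCTRL (log2 -1.73, SE 0.0922, adjusted p = 5.18e-09). That difference had the smallest adjusted p of the 10 genes in any knockdown comparison.

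CDT1, the partner of CDC6 in loading (chr16:88803213-88809258, plus strand), had the lowest counts of the 10. In C4-2B with TG it had 3.15, 4.07, 1.93 and 2.68 CPM in siMOCOS and 9.25, 10.1, 10.7 and 9.51 CPM in siCTRL libraries (log2 -1.71, SE 0.2005, adjusted p = 9.89e-06). In C4-2B without TG it had 3.60, 3.98, 3.36 and 3.66 CPM in siMOCOS, against 11.1, 12.6, 15.9 and 15.5 CPM in siCTRL (log2 -1.92, SE 0.2002, adjusted p = 2.76e-06). The groups lay well apart in this line. In LNCaP they overlapped, with 6.18, 4.67, 3.57 and 3.57 CPM in siMOCOS and 4.03, 6.39, 5.36 and 2.66 CPM in siCTRL libraries under TG (log2 -0.01, adjusted p = 0.976, 95% interval -0.54 to 0.52). Without TG, LNCaP had 4.05, 5.07, 3.06 and 3.29 CPM in siMOCOS and 6.36, 6.67, 5.88 and 4.81 CPM in siCTRL libraries (log2 -0.63, adjusted p = 0.113, interval -1.19 to -0.08). At this spread between libraries, a fall without TG was neither called nor shown to be absent. With a correction for GC content and length, the LNCaP value without TG was -1.03 (edgeR adjusted p = 0.0037).

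GMNN, which inhibits CDT1 (chr6:24774931-24786099, plus strand), had the smallest fitted fall of the 10 in C4-2B. With TG it had 8.61, 8.71, 10.5 and 8.90 CPM in siMOCOS, against 16.6, 17.4, 12.1 and 18.1 CPM in siCTRL libraries (log2 -0.78, SE 0.191, adjusted p = 0.00827). Without TG it had 12.5, 11.3, 9.97 and 8.84 CPM in siMOCOS, against 20.7, 10.3, 18.5 and 17.8 CPM in siCTRL (log2 -0.67, SE 0.191, adjusted p = 0.0206). Here siCTRL replicate 2 lay among the siMOCOS libraries, and the call without TG was lost when any of 5 libraries was left out (siCTRL replicates 1, 3 and 4, siMOCOS replicates 3 and 4), with an edgeR adjusted p up to 0.0689. In LNCaP with TG, GMNN had 9.12, 7.75, 7.99 and 8.57 CPM in siMOCOS and 10.9, 14.1, 16.9 and 15.8 CPM in siCTRL libraries (log2 -0.77, SE 0.170, adjusted p = 0.00408). Without TG, siMOCOS libraries had 17.3, 15.6, 9.49 and 10.3 CPM and siCTRL libraries 23.0, 21.8, 22.8 and 20.2 CPM (log2 -0.75, SE 0.169, adjusted p = 0.00608). In LNCaP the groups did not overlap in either drug state.

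The helicase subunits fell together in C4-2B. MCM2 (chr3:127598223-127622436, plus strand) had 11.9, 13.5, 8.44 and 18.4 CPM in siMOCOS with TG, against 52.0, 51.9, 47.8 and 68.0 CPM in siCTRL with TG (log2 -2.04, SE 0.218, adjusted p = 4.01e-06). MCM2 without TG had 20.3, 25.1, 34.7 and 30.0 CPM in siMOCOS, against 89.98, 90.4, 119 and 111 CPM in siCTRL (log2 -1.91, SE 0.215, adjusted p = 6.22e-06). The fitted level in siMOCOS was 0.243 of that in siCTRL cells with TG and 0.267 of it without. MCM7 (chr7:100092728-100101940, minus strand) had 64.5, 69.2, 76.4 and 80.8 CPM in siMOCOS with TG, against 244, 251, 250.2 and 237 CPM in siCTRL with TG (log2 -1.73, SE 0.115, adjusted p = 3.94e-08). Its values without TG were 79.3, 86.0, 105 and 106 CPM in siMOCOS and 275, 278, 286 and 279 CPM in siCTRL libraries (log2 -1.58, SE 0.115, adjusted p = 8.17e-08). The siCTRL libraries of MCM7 lay within a narrow band, and no siMOCOS library came near it. MCM5 (chr22:35400063-35425430, plus strand) spanned 11.3 to 19.95 CPM in siMOCOS and 59.0 to 75.0 CPM in siCTRL libraries with TG, and 18.9 to 27.001 against 71.5 to 80.7 CPM without TG. MCM4 spanned 53.0 to 64.3 against 183 to 244 CPM with TG and 70.3 to 87.0 against 232 to 269 CPM without TG. For both the gap between siMOCOS and siCTRL was wider than either group. Their log2 changes were -2.02 with TG and -1.75 without for MCM5, and -1.73 and -1.65 for MCM4. MCM3 (chr6:52264009-52284881, minus strand) fell by less (log2 -1.37 with TG, -1.22 without), and MCM6 (chr2:135839626-135876426, minus strand) least of the subunits (log2 -1.15 and -0.93). The edgeR adjusted p was at most 0.000355 for any subunit in C4-2B. In C4-2B without TG, siMOCOS columns 1 and 2 lay under columns 3 and 4 for MCM2, MCM3, MCM5, MCM7 and CDC6. They lay above them for MCM4 and GMNN, and the pairs overlapped for MCM6, CDT1 and ORC1. With TG, columns 1 and 2 lay under for MCM3, MCM4, MCM6, MCM7, CDC6 and GMNN, and above for CDT1. Without TG, deviations of columns 1 to 4 correlated with GC content at -0.43, -0.29, 0.39 and 0.32. The part of siRNA or GC content in these splits was not tested.

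In LNCaP, 5 of the 6 subunits were called lower in both drug states, and MCM5 in neither. MCM2 had 14.2, 12.3, 8.46 and 10.5 CPM in siMOCOS with TG, against 19.3, 24.2, 20.6 and 23.1 CPM in siCTRL with TG (log2 -0.91, SE 0.173, adjusted p = 0.00124). MCM2 without TG had 21.9, 27.9, 20.7 and 18.1 CPM in siMOCOS, against 42.6, 48.0, 49.6 and 30.9 CPM in siCTRL (log2 -0.97, SE 0.172, adjusted p = 0.00095). The groups did not overlap, and the fitted level in siMOCOS was 0.530 of that in siCTRL cells with TG and 0.511 of it without. MCM7 spanned 51.2 to 71.8 CPM in siMOCOS and 114 to 136 CPM in siCTRL libraries with TG (log2 -1.03, adjusted p = 7.78e-06), and 66.2 to 82.6 against 136 to 156 CPM without TG (log2 -0.98, adjusted p = 1.59e-05). MCM3 and MCM6 changed by log2 -0.88 and -0.998 with TG, and by -1.03 and -0.96 without. MCM4 fell most of the subunits, with 117, 102, 71.9 and 75.0 CPM in siMOCOS columns 1 to 4 without TG, against 211, 209, 192 and 191 CPM in siCTRL (log2 -1.15, SE 0.123, adjusted p = 8.86e-06). Columns 1 and 2 were higher than columns 3 and 4 there, as they were for every other gene of the 10 except CDC6. Among these were MCM6 (59.2, 55.7, 37.6 and 40.3 CPM) and MCM7 (82.6, 80.1, 66.2 and 67.7 CPM). With TG the same held for MCM2, MCM4, MCM5, MCM7, CDT1 and ORC1, and not for MCM3, MCM6, CDC6 and GMNN. The columns do not name the siRNA, and its part in this split was not tested. MCM5 had 26.2, 22.6, 14.5 and 13.7 CPM in siMOCOS with TG, against 26.96, 40.6, 27.3 and 26.2 CPM in siCTRL with TG (log2 -0.63, adjusted p = 0.0775). Without TG, MCM5 had 24.7, 38.9, 17.7 and 21.9 CPM in siMOCOS and 43.5, 43.8, 46.7 and 27.1 CPM in siCTRL libraries (log2 -0.66, adjusted p = 0.0811). Without TG the MCM5 groups overlapped through siMOCOS column 2 and siCTRL replicate 4, and with TG by a margin at siMOCOS column 1. Without siMOCOS column 2, the value without TG was -0.93 (adjusted p = 0.0223). With the correction for GC content and length it was -0.83 (adjusted p = 0.0173). With TG, MCM5 was called lower in 4 of 16 alternatives. These were DESeq2 (log2 -0.64, adjusted p = 0.041), that correction (-0.90, 0.00859), the edgeR fit of all 32 libraries (-0.65, 0.0433) and edgeR without siMOCOS column 1 (-0.84, 0.0396).

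**Figure D2:**
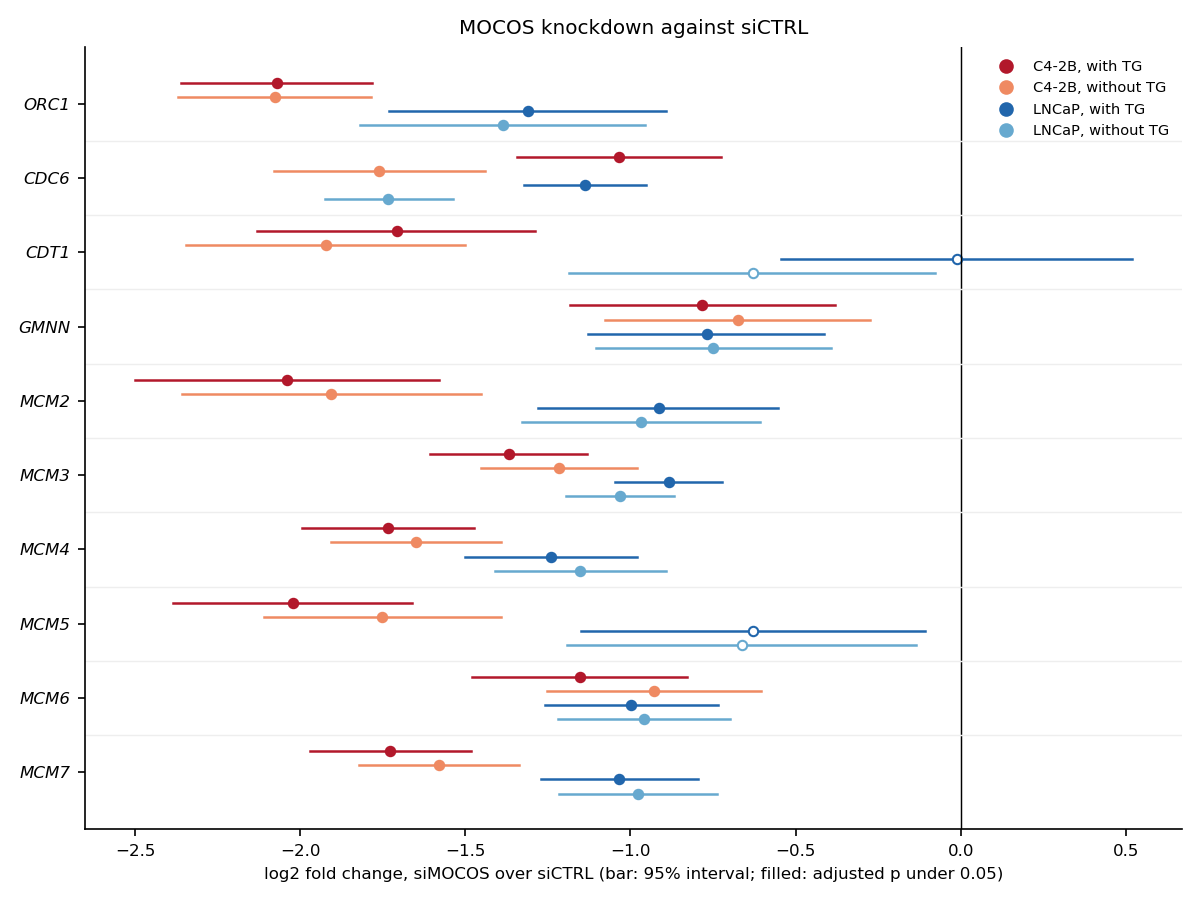
Log2 fold change of each gene for siMOCOS over siCTRL in the 4 settings of line and drug, with 95% intervals as bars, and filled points at an adjusted p under 0.05. All C4-2B points are filled and lie between -2.08 and -0.67, while CDT1 and MCM5 in LNCaP are open.

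Genes that act before and after loading were read from lists. Of all genes, 7.6% were called lower with TG and 8.14% without TG in C4-2B, and 10.2% and 9.73% in LNCaP. Called higher were 9.21% and 9.09% in C4-2B, and 11.7% and 6% in LNCaP. Of 18 genes of helicase activation and origin firing, 17 were called lower in C4-2B with and without TG, and in LNCaP 15 with TG and 18 without, with none called higher. TICRR, the treslin that brings CDC45 to the helicase, had a log2 change of -2.10 with TG and -2.12 without TG in C4-2B (adjusted p = 6.08e-08 and 4.55e-08). CDC45, part of the active helicase, changed by log2 -1.97 in C4-2B and -1.51 in LNCaP without TG (adjusted p = 2.09e-07 and 6.8e-06). CLSPN, the checkpoint adaptor claspin, changed by log2 -2.69 in C4-2B and -2.11 in LNCaP with TG (adjusted p = 3.77e-07 and 8.18e-07). The median of this list lay between -1.62 and -1.15 in the 4 comparisons. The other 5 subunits of the origin recognition complex gave fewer calls, with 2 called lower with TG and 1 without in C4-2B, and 3 with TG and 2 without in LNCaP. ORC6 was called in all 4 (log2 -1.62 and -1.65 in C4-2B, -0.82 and -1.11 in LNCaP). Over these 5 subunits the median lay between -0.44 and -0.15.

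Of 17 tested genes that control the licensing factors, such as ubiquitin ligase parts and S phase cyclins, 8 were called lower with TG and 10 without TG in C4-2B, and 8 and 12 in LNCaP. Of all genes, 7.6% and 8.14% were called lower in C4-2B, and 10.2% and 9.73% in LNCaP. GMNC, named here after its value was seen, was the 1 that rose, without TG in C4-2B (log2 0.93, adjusted p = 0.0376). There 9.09% of all genes were called higher, so 1 of 17 is under that share and nothing is read from it. CDC25A, the phosphatase that activates CDK2, changed by log2 -1.90 with TG and -1.81 without in C4-2B, and by -1.55 and -1.35 in LNCaP. Its adjusted p was at most 2.29e-06. Of the 13 E2F and pocket protein genes, 6 were called lower with TG and 5 without in each line, and 2 were called higher in C4-2B with TG (RB1 and E2F5, named after their values were seen, log2 0.51 and 0.67). In that comparison 9.21% of all genes were called higher, and nothing is read from these 2. The activator E2F1 changed by log2 -1.78 with TG and -1.67 without in C4-2B (adjusted p = 2e-06 and 3.55e-06). RBL1, the pocket protein p107, changed by log2 -1.32 with TG and -1.27 without in LNCaP (adjusted p = 2.27e-05 and 4.59e-05). Among 5 relatives and partners of the MCM proteins, MCM8 and MCMBP were called lower in all 4 comparisons, and MCM8 changed by log2 -1.55 with TG and -1.47 without in C4-2B. Most proliferation markers fell with the licensing genes. MKI67, TOP2A, PCNA and CCNB1 were called lower in all 4 knockdown comparisons, and their part in the licensing result was not tested. The list of 6 also holds CDKN1A, which was higher after knockdown without TG. With CDKN1A included, the 6 summed to 341 to 587 CPM in siMOCOS and 642 to 773 CPM in siCTRL libraries of C4-2B with TG. Without TG the sums in C4-2B were 409 to 875 against 876 to 1134 CPM. In LNCaP the sums overlapped, at 468 to 905 against 757 to 801 CPM with TG and 523 to 1165 against 994 to 1145 CPM without. Without TG these sums mix genes called in opposite directions, and nothing is read from their overlap. MKI67 changed by log2 -1.80 with TG and -2.04 without in C4-2B, and by -1.48 and -1.38 in LNCaP. CDKN1A, the CDK inhibitor p21, was higher without TG (log2 1.29 in C4-2B and 1.04 in LNCaP, adjusted p = 0.0182 and 0.0209).

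TG split the licensing genes. CDC6 rose in all 4 comparisons of TG with no TG, while MCM2, MCM3 and MCM4 fell in all 4. In C4-2B, 2 of the 10 were called higher and 6 lower in siMOCOS cells, where 20.7% and 17.2% of genes were called higher and lower, and 2 higher and 3 lower in siCTRL cells, where 21.2% and 19.3% were. In LNCaP, 1 was called higher and 5 lower in siMOCOS cells (25.1% and 21.9% of genes), and 1 higher and 5 lower in siCTRL cells (24.6% and 25.1%). The share of members called higher was thus near or under that of all genes. The share called lower was above it in 4 of 4 comparisons, but 3 of 10 in siCTRL cells of C4-2B is near 19.3%. The MCM4 call there was lost in 10 of 18 alternatives. In siMOCOS cells of C4-2B, the 6 called lower fell to 3 without some single libraries. Their median log2 change was -0.37 in siMOCOS and -0.21 in siCTRL cells of C4-2B, and -0.50 and -0.48 in LNCaP, against medians of all genes between -0.04 and -0.01.

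CDC6 had 111, 93.6, 146 and 121 CPM in C4-2B siMOCOS cells with TG, against 21.8, 21.7, 26.9 and 29.6 CPM in siMOCOS cells without TG (log2 2.27, SE 0.154, adjusted p = 1.01e-08). In siCTRL cells of C4-2B it had 266, 239, 209 and 269 CPM with TG and 99.7, 76.0, 80.2 and 81.0 CPM without TG (log2 1.54, SE 0.149, adjusted p = 6.2e-07). Every library with TG was above every library without it, at a fitted 4.82-fold in siMOCOS and 2.91-fold in siCTRL cells. In LNCaP, CDC6 averaged 81.2 ± 3.35 CPM with TG and 26.0 ± 2.28 CPM without in siMOCOS cells (SD, n = 4 each), and 182 ± 3.45 against 85.2 ± 9.17 CPM in siCTRL cells. These groups did not overlap either (log2 1.69, SE 0.0918, adjusted p = 1.84e-10 in siMOCOS, log2 1.10, SE 0.0881, adjusted p = 1.82e-08 in siCTRL). CDC6 in knockdown cells with TG (93.6 to 146 CPM in C4-2B) was near or above its level in siCTRL cells without TG (76.0 to 99.7 CPM), a pair that differs in both siRNA and drug and was not tested.

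**Figure D3:**
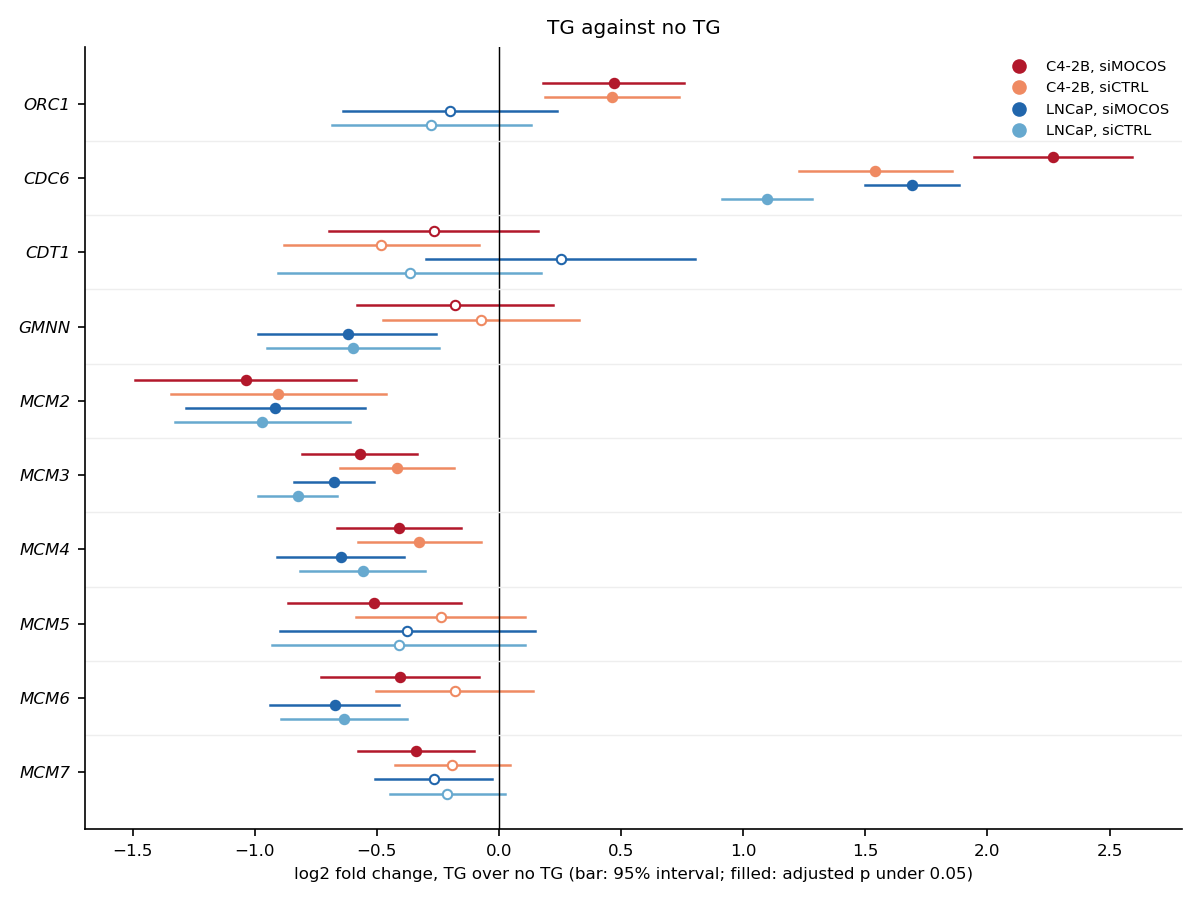
Log2 fold change of each gene for TG over no TG in the 4 settings of line and siRNA, with 95% intervals as bars, and filled points at an adjusted p under 0.05. CDC6 stands apart to the right, between 1.10 and 2.27, and MCM2 lies furthest left, between -1.04 and -0.90.

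The fitted rise of CDC6 with TG was larger in siMOCOS than in siCTRL cells of both lines, and this difference did not pass the threshold over all genes. The interaction of knockdown and TG was 0.73 in C4-2B (95% interval 0.29 to 1.16, edgeR adjusted p = 0.251) and 0.60 in LNCaP (interval 0.33 to 0.86, adjusted p = 0.116). edgeR called 0 of the 10 in either direction in both lines, where 0.0283% of genes were called higher and 0.0425% lower in C4-2B, and 0.00724% and 0% in LNCaP. CDC6 was the 1 member with an unadjusted p under 0.05 in each line. In LNCaP DESeq2 called CDC6 (log2 0.54, adjusted p = 0.017), and limma voom called none of the 10 in either line. The interactions of the other 9 lay between -0.27 and 0.21 in C4-2B, and between -0.09 and 0.62 in LNCaP.

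ORC1 rose with TG in C4-2B, where it had 7.87, 7.11, 8.60 and 6.65 CPM with TG and 5.58, 5.23, 5.35 and 6.10 CPM without in siMOCOS cells (log2 0.47, SE 0.137, adjusted p = 0.0122). In siCTRL cells of C4-2B, ORC1 had 31.4, 30.3, 37.0 and 30.6 CPM with TG and 24.3, 26.2, 24.0 and 19.04 CPM without (log2 0.46, SE 0.131, adjusted p = 0.00943). The libraries with TG were all above those without. Without all 5 libraries over 0.45 in GC correlation, both calls were lost (log2 0.41 in siMOCOS and 0.37 in siCTRL cells, adjusted p = 0.0712 and 0.0861). In LNCaP the values were lower with TG and not called (log2 -0.20 in siMOCOS and -0.28 in siCTRL, adjusted p = 0.452 and 0.251). CDT1 was called in none of the 4 comparisons. In siCTRL cells of C4-2B its libraries with TG were all under those without (log2 -0.48, adjusted p = 0.0515), and DESeq2 and limma voom put the adjusted p at 0.0213 and 0.0392. Without the 5 libraries edgeR called it lower (log2 -0.52, adjusted p = 0.038). GMNN was called lower with TG in LNCaP, with 7.75 to 9.12 CPM against 9.49 to 17.3 CPM in siMOCOS (log2 -0.62, adjusted p = 0.00681) and 10.9 to 16.9 against 20.2 to 23.0 CPM in siCTRL cells (log2 -0.60, adjusted p = 0.0063). The siCTRL call was lost without siCTRL with TG replicate 1 (adjusted p = 0.0509). In C4-2B, GMNN changed by log2 -0.18 in siMOCOS and -0.07 in siCTRL cells, neither called. Without the 5 libraries the siCTRL value was 0.16, also not called.

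Among the subunits MCM2 fell most with TG. In C4-2B it had 11.9, 13.5, 8.44 and 18.4 CPM with TG and 20.3, 25.1, 34.7 and 30.0 CPM without in siMOCOS cells (log2 -1.04, SE 0.215, adjusted p = 0.00104). In siCTRL cells it had 52.0, 51.9, 47.8 and 68.0 CPM with TG and 89.98, 90.4, 119 and 111 CPM without (log2 -0.90, SE 0.209, adjusted p = 0.00242). LNCaP gave similar changes, log2 -0.92 in siMOCOS and -0.97 in siCTRL cells (adjusted p = 0.000311 and 0.000133). In none of the 4 did the libraries of MCM2 overlap. MCM3 changed by log2 -0.57 in siMOCOS and -0.42 in siCTRL cells of C4-2B, and by -0.67 and -0.82 in LNCaP, with an adjusted p of at most 0.00639. MCM4 changed by log2 -0.41 in siMOCOS and -0.33 in siCTRL cells of C4-2B (adjusted p = 0.0126 and 0.0383), and by -0.65 and -0.56 in LNCaP. Its call in C4-2B siCTRL cells was lost without any of 6 libraries (replicates 1, 2 and 4 of either group) or without the 5 libraries over 0.45 in GC correlation (adjusted p = 0.148), and with 1 library left out the adjusted p was up to 0.107.

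MCM6 was called lower in LNCaP (log2 -0.67 in siMOCOS and -0.63 in siCTRL) and in siMOCOS cells of C4-2B (log2 -0.41, adjusted p = 0.046). By edgeR, MCM5 and MCM7 were called lower with TG in siMOCOS cells of C4-2B (log2 -0.51, adjusted p = 0.0241 for MCM5 and log2 -0.34, adjusted p = 0.025 for MCM7). In siMOCOS cells of LNCaP, MCM7 missed the threshold (log2 -0.27, adjusted p = 0.0605) and was called lower in 7 of 16 alternatives, DESeq2 among them (adjusted p = 0.0301). The interactions called neither gene. The 3 calls of MCM5, MCM6 and MCM7 in siMOCOS cells of C4-2B were each lost without single libraries. With GC content and length corrected, MCM5 and MCM7 were not called there (edgeR adjusted p = 0.0502 and 0.196). The calls of MCM4, MCM5 and MCM7 were also lost without all 5 libraries over 0.45, and 3 of the 10 genes were then called lower. Without siMOCOS with TG replicate 1, without siMOCOS replicate 3 or without siMOCOS replicate 4, all 3 missed the threshold and 3 of the 10 genes were called lower instead of 6.

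Under TG, genes of the other lists were called in both directions. Of all genes, 20.7% were called higher and 17.2% lower in siMOCOS and 21.2% and 19.3% in siCTRL cells of C4-2B, and 25.1% and 21.9%, and 24.6% and 25.1%, in LNCaP. The share called higher was near or under these in the lists of firing genes, regulators, E2F and pocket proteins and origin recognition subunits, and nothing is read from it. Of the 18 firing genes, 6 were called lower and 2 higher in siMOCOS cells of C4-2B, and 8 and 2 in siCTRL cells, while in LNCaP 11 were lower and 0 higher in each. DBF4, the activator of the CDC7 kinase, fell in all 4 (log2 -0.62 in siMOCOS and -0.74 in siCTRL cells of C4-2B, -0.97 and -0.81 in LNCaP). MTBP, which acts with treslin, rose in C4-2B (log2 0.50 in siMOCOS and 0.86 in siCTRL cells, adjusted p = 0.0491 and 0.00118). Among regulators, FBXO5 (EMI1), the inhibitor of the ligase that destroys geminin, rose in all 4 (log2 1.59 in siMOCOS and 0.59 in siCTRL cells of C4-2B, 1.22 and 0.47 in LNCaP). CCNE1, cyclin E1, fell in all 4 (log2 -1.38 and -1.58 in C4-2B, -1.26 and -1.91 in LNCaP, in siMOCOS and siCTRL cells). E2F3 changed by log2 -1.15 and -1.11 in C4-2B and by -1.15 and -1.33 in LNCaP, in the same order, with an adjusted p of at most 6.71e-05. Of the 17 genes that control the licensing factors, 1 was called higher and 4 lower in siMOCOS cells and 1 and 5 in siCTRL cells of C4-2B, and 2 and 8, and 1 and 8, in LNCaP. Of the 13 E2F and pocket protein genes, 1 was higher in each comparison, and 4 were lower in each siRNA state of C4-2B, 6 in siMOCOS and 8 in siCTRL cells of LNCaP. Of the other 5 origin recognition subunits at most 1 was called in a comparison, and it was higher each time (ORC5 in siCTRL cells of C4-2B, ORC4 in both LNCaP comparisons). PCNA, the sliding clamp, fell in all 4 TG comparisons, with log2 changes of -0.79 in siMOCOS and -1.33 in siCTRL cells of C4-2B, and -1.16 and -1.39 in LNCaP. Of the 6 proliferation markers, 2 were called lower and 0 higher with TG in siMOCOS cells of C4-2B, and 3 and 1 in siCTRL cells. In LNCaP, 4 were called lower and 1 higher in siMOCOS cells, and 5 and 1 in siCTRL cells. This list of 6 includes the CDK inhibitor CDKN1A, so a call higher in it need not be of a gene that marks dividing cells. The 11 markers of other cell types summed to 27.5 to 45.5 CPM with TG against 12.8 to 16.5 CPM without in siMOCOS cells of C4-2B, and to 22.9 to 27.7 against 6.64 to 12.01 CPM in siCTRL cells. In LNCaP they summed to 24.4 to 34.3 against 10.4 to 18.7 CPM in siMOCOS and to 16.1 to 21.3 against 7.68 to 8.78 CPM in siCTRL cells. The part of either list in the TG result was not tested.

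Ratios within a library do not depend on how libraries are scaled. They were not corrected for the GC content of transcripts, which was 66.0% for CDT1, 45.2% for CDC6 and 42.4% for GMNN. The part of GC content in the ratios was not tested. CDC6 relative to CDT1 had log2 values of 5.14, 4.53, 6.24 and 5.49 in C4-2B siMOCOS cells with TG, against 2.599, 2.45, 3.00 and 3.02 without TG. In siCTRL cells of C4-2B they were 4.84, 4.57, 4.29 and 4.82 with TG and 3.17, 2.596, 2.34 and 2.38 without TG. The ratio was higher with TG in every library of both pairs, by a mean of 2.59 in siMOCOS and 2.01 in siCTRL cells, and in LNCaP by 1.44 and 1.53, again without overlap. After knockdown the same ratio was lower in LNCaP without overlap, by a mean log2 difference of -1.16 with TG and -1.08 without. In C4-2B the differences were 0.72 with TG and 0.15 without, with overlap. With 1 library left out they were 0.42 (without siMOCOS with TG replicate 3) to 0.99 with TG and 0.05 to 0.33 without. CDT1 relative to its inhibitor GMNN was lower after knockdown in C4-2B, with -1.45, -1.10, -2.44 and -1.73 in siMOCOS and -0.84, -0.79, -0.18 and -0.93 in siCTRL libraries under TG. Without TG the values were -1.79, -1.50, -1.57 and -1.27 in siMOCOS and -0.90, 0.28, -0.22 and -0.20 in siCTRL libraries. The siMOCOS libraries were under the siCTRL libraries in both, by a mean of -0.99 with TG and -1.27 without. In LNCaP the knockdown differences were 0.77 with TG and 0.15 without, and the groups overlapped. The difference with TG was 0.48 without siCTRL with TG replicate 4, and that without TG was 0.09 to 0.26 with 1 library left out. With TG the LNCaP siMOCOS libraries had a higher CDT1 to GMNN ratio than without TG, by a mean of 0.82 and without overlap. An exact two-sided permutation test of 4 against 4 libraries cannot go below p = 0.0286. The differences without overlap had that p, and over the 16 ratio tests their Benjamini-Hochberg adjusted value was 0.0508, so none passed 0.05.

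**Figure D4:**
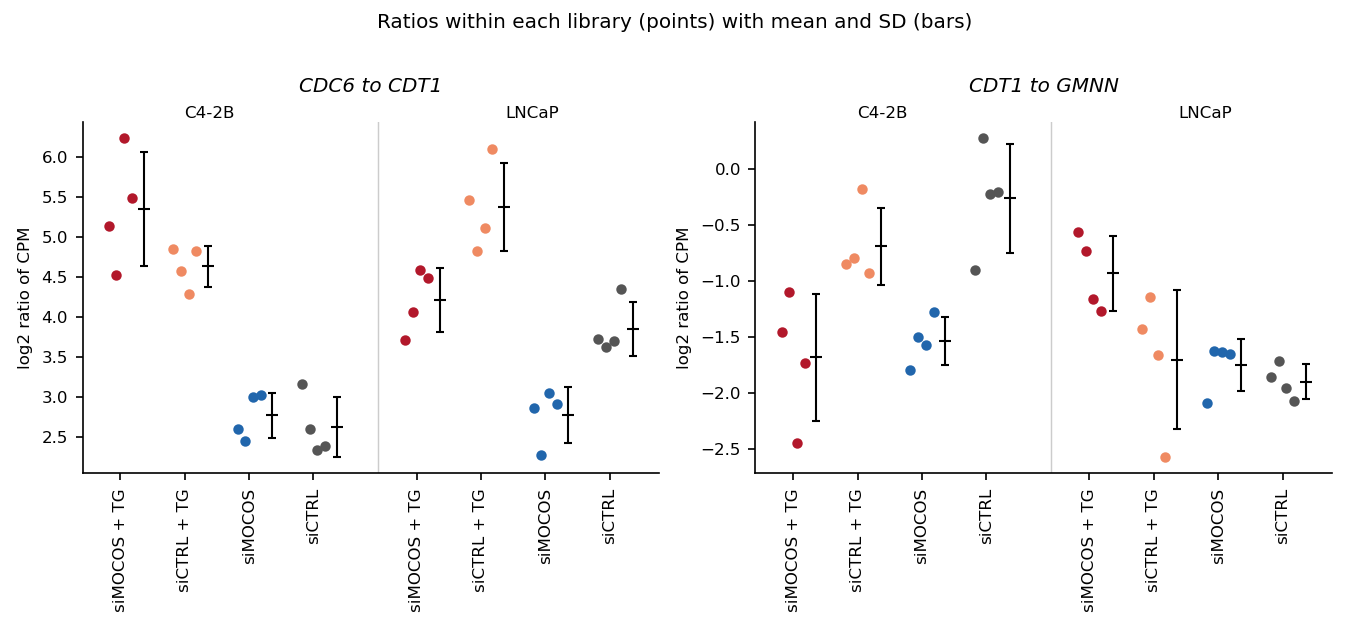
Log2 ratio of CPM within each library for CDC6 to CDT1 (left) and CDT1 to GMNN (right), 4 libraries a group as points, with mean and SD (bars) beside them. CDC6 to CDT1 is higher with TG in both lines, and CDT1 to GMNN is lower in C4-2B siMOCOS than in C4-2B siCTRL libraries.

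The lines differed without MOCOS knockdown or TG. In siCTRL cells without TG, 6 of the 10 genes were called higher and 1 lower in C4-2B than in LNCaP, where 20.1% and 21.1% of the 14628 genes tested were called. MCM2 had 89.98, 90.4, 119 and 111 CPM in C4-2B and 42.6, 48.0, 49.6 and 30.9 CPM in LNCaP (log2 1.26, SE 0.197, adjusted p = 6.82e-06). MCM7 had 275, 278, 286 and 279 CPM in C4-2B, against 140.1, 143, 156 and 136 CPM in LNCaP (log2 0.96, SE 0.1103, adjusted p = 3.51e-08). CDT1 had 11.1, 12.6, 15.9 and 15.5 CPM in C4-2B, against 6.36, 6.67, 5.88 and 4.81 CPM in LNCaP (log2 1.21, SE 0.224, adjusted p = 7.7e-05). In these 3 every C4-2B library was above every LNCaP library (18.2% of all genes), as in MCM5, MCM3 and MCM4 (log2 0.94, 0.35 and 0.31, adjusted p = 0.000995, 0.00236 and 0.0419). The MCM4 call was lost with any of 6 single libraries left out (C4-2B siCTRL replicates 1 and 2 and each LNCaP siCTRL replicate, adjusted p up to 0.105), without the 5 libraries over 0.45 in GC correlation (adjusted p = 0.0948) and without the 3 strongest (adjusted p = 0.0644). MCM6 was lower in C4-2B, with 83.7, 58.8, 58.8 and 57.9 CPM against 101, 82.1, 86.8 and 100.005 CPM in LNCaP (log2 -0.51, SE 0.142, adjusted p = 0.00481). C4-2B replicate 1 of MCM6 lay within the LNCaP range. CDC6 averaged 84.2 ± 10.5 CPM in C4-2B and 85.2 ± 9.17 CPM in LNCaP (log2 -0.02, 95% interval -0.25 to 0.22). ORC1 and GMNN were not called (log2 0.20 and -0.38, adjusted p = 0.367 and 0.101).

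The change with TG was not shown to differ between the lines for any of the 10. edgeR, DESeq2 and limma voom each called 0, while 0.431% of genes were called higher and 0.417% lower in C4-2B, and 4 members had an unadjusted p under 0.05. ORC1 had the greatest difference (log2 0.75, adjusted p = 0.171, 95% interval 0.26 to 1.23). The knockdown response without TG also gave 0 calls by edgeR and limma voom, against 0.137% of genes called higher and 0.0205% lower, but 6 members had an unadjusted p under 0.05, and DESeq2 called 3 lower. The fall with knockdown under TG was larger in C4-2B for 3 of the 10 genes, while 0.239% of genes were called higher and 0.191% lower. These were CDT1 (log2 -1.70, SE 0.322, adjusted p = 0.0154), MCM5 (log2 -1.40, SE 0.313, adjusted p = 0.0411) and MCM7 (log2 -0.70, SE 0.155, adjusted p = 0.0411). Under TG, CDT1 in siMOCOS cells was at 0.306 of its siCTRL level in C4-2B and at 0.991 of it in LNCaP. MCM5 and MCM7 were within a narrow margin of the threshold, and their calls were lost in 14 and 16 of 24 alternatives, CDT1 in 1. MCM2 had a log2 difference of -1.13 with an adjusted p of 0.0564. With LNCaP siMOCOS with TG column 1 left out no member was called (CDT1 adjusted p = 0.0544), and with column 3 left out 5 were.

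The differences between the lines followed the GC content of the genes' transcripts. The median GC content of transcripts was 66.0% for CDT1, 59.9% for MCM5, 58.1% for MCM7 and 57.5% for MCM2, and 42.4% for GMNN, 43.1% for MCM6 and 45.2% for CDC6. Across the 10 genes, Pearson's r between GC content and the log2 difference was 0.95 in siCTRL cells without TG, and -0.94 for the knockdown response with TG. Across all 13032 genes with a value it was 0.24 and -0.41. Genes of 1 library share its composition, so these are descriptions. With GC content and length corrected, the siCTRL difference was 0.58 for CDT1, 1.02 for MCM2 and 0.62 for MCM5, and the 6 called higher stayed called. MCM6 was then not called (log2 -0.25, adjusted p = 0.0963). For the knockdown response with TG the corrected values were -1.17 for CDT1, -1.10 for MCM5 and -0.47 for MCM7. CDT1, MCM5, MCM3 and MCM4 were called under that correction, and MCM7 was not.

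**Figure D5:**
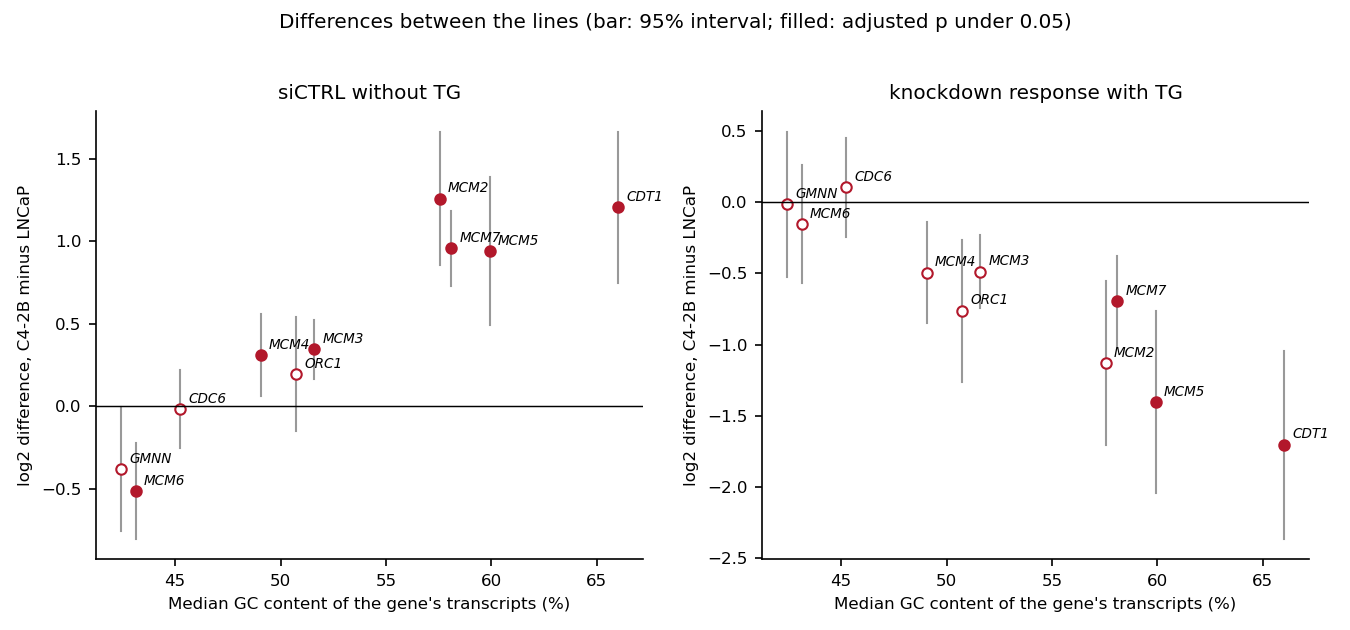
Log2 difference between the lines (C4-2B minus LNCaP) against the median GC content of each gene's transcripts in percent, for siCTRL cells without TG (left) and for the knockdown response with TG (right), with 95% intervals as bars and filled points at an adjusted p under 0.05. Points run upward with GC content on the left and downward on the right.

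Over the 8 groups, centred within each line, 9 of the 10 genes followed the mean of MCM2 to MCM7 closely (each subunit left out of the mean it was compared with), with a Pearson's r between 0.89 for CDT1 and 0.99 for MCM4. CDC6 did not, with an r of 0.30. Its highest r with another member was 0.68, for ORC1. Among the 10459 other genes compared, the 5 most like the MCM mean were RAD54L, ASF1B, CDC25B, MCM10 and E2F2, with an r of 0.995 or more. The 5 most like CDC6 among 10468 genes were RFC1, BORA, DENND5A, COPS4 and ZNF92, with an r of 0.994 or more. With 8 points and so many genes, high values of r are to be found for most profiles, so these are descriptions of likeness alone. By annotation, 45 exonic bases of MCM2 are shared with TPRA1 and 1113 with AC023593.1, and 392 of MCM7 with AP4M1, all on the opposite strand. The library kit is strand-specific, per the labels, but no source used here states the strand setting of the counting, so reads of these pairs may not have been told apart.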

How the data were processed

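RNA of 32 cell line libraries was sequenced from polyadenylated RNA with a strand-specific kit, per the labels. The authors deposited 1 table of expected counts per gene, scaled for transcript length, per the file headers and column names. Salmon 1.5.2, STAR 2.6.1d, cutadapt 3.4, Trim Galore 0.6.7 and FastQC 0.11.9 are the tools, and hg38 the genome, per the submitters' processing notes. All 32 value columns were used. The deposited estimated counts are not whole numbers in general, and they were rounded.

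In R 4.3.3, edgeR 4.0.16 (filterByExpr, TMM, quasi-likelihood F test, Benjamini-Hochberg over all genes tested, calls at an adjusted p under 0.05) was fitted to C4-2B (14127 genes, biological coefficient of variation 0.219, 12 residual degrees of freedom), LNCaP (13806 genes, 0.174, 12) and, for differences between lines, all libraries (14628 genes, 0.201, 24). Knockdown and TG comparisons and their interaction are contrasts of 4 group means. The SE is the unshrunken log2 change over the root of F, and intervals are 95%. CPM were TMM-scaled over all libraries and are not per length, so levels are compared within a gene. Ratios used exact two-sided permutation tests over the 70 splits. DESeq2 1.42.0 and limma 3.58.1 (voom), another scaling, no filter, left-out libraries and a replicate block were alternatives. Library size alone, a correction for GC content and length (GENCODE 29 transcripts) and leaving out 3 or 5 libraries by their correlation with GC content were chosen after seeing the data. The tests were tried on simulated counts. All 10 members are named. From each other list at most the 3 called genes with the smallest adjusted p in a comparison are named, and the 5 genes most like the MCM mean and CDC6. The members and lists were chosen with earlier results of these data known.

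Labels pair no replicates across groups. Some values of the marker lists are not reported here.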

Additional observations from a re-analysis of the deposited data

Results flagged for a closer look

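In 80 groups of 4 libraries (10 genes in 8 groups), 7 held a library set apart from its group by Dixon's criterion, where chance sets apart about 1 in 20. In C4-2B siCTRL with TG, replicate 3 was high for MCM3 at 135.8 CPM (the others 116.7 to 117.3 CPM) and for MCM4 at 243.9 CPM (183 to 187 CPM), and replicate 2 was high for MCM6 at 58.8 CPM (56.8 to 56.9 CPM). In C4-2B siMOCOS with TG, replicate 3 had 10.5 CPM of GMNN (8.61 to 8.90 CPM). In C4-2B siCTRL, replicate 1 had 83.7 CPM of MCM6 (57.9 to 58.8 CPM). In LNCaP, MCM5 was high in siCTRL with TG replicate 2 at 40.6 CPM (26.2 to 27.3 CPM) and low in siCTRL replicate 4 at 27.1 CPM (43.5 to 46.7 CPM). C4-2B siMOCOS with TG replicate 3, C4-2B siCTRL replicate 1 and LNCaP siCTRL with TG replicate 2 are among the 5 libraries whose deviations correlated with GC content by over 0.45 in size.

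The knockdown response with TG was called different between the lines, tested as a difference of differences, for 3 genes. These were CDT1 (log2 -1.70), MCM5 (log2 -1.40) and MCM7 (log2 -0.70), each lower in C4-2B. Their calls were lost in 1, 14 and 16 of 24 alternatives, in that order.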

How the results depend on the processing

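Across the alternatives, 2585 of the log2 changes and calls of single genes kept their side of the threshold, 37 passed it newly and 83 lost it. Another 5 changed sign by more than 1 standard error. Uncalled values that changed sign by less are counted among the 2585. Of the 5, GMNN changed sign with TG in siCTRL cells of C4-2B without the 5 libraries over the GC limit (0.16). CDT1 did so with TG in siMOCOS cells of C4-2B with the GC and length correction (0.072). CDC6 did so between the lines in siCTRL cells by library size only (0.14) and with that correction (0.17). CDC6 also did so in the line difference of the knockdown response with TG with that correction (-0.10). None of these values was called. Counts of called members moved over 1.5 times as follows. The LNCaP interaction gave 1 higher with DESeq2 and 1 with the GC correction. The siCTRL line difference gave 0 lower with that correction, and 1 to 2 with 1 library left out (2 without C4-2B siCTRL replicate 1). The line difference in the knockdown response without TG gave 3 lower with DESeq2, 1 with the GC correction and 1 without the 3 libraries. With TG it gave 1 with no filter, 5 with DESeq2, 1 by library size only, 1 without the 3 libraries and 1 without the 5, and 0 to 5 with 1 library left out (0 without LNCaP siMOCOS with TG column 1, 5 without column 3). TG in siMOCOS cells of C4-2B gave 3 to 5 lower with 1 library left out, and without the 5 libraries 1 higher and 3 lower, and 1 higher in siCTRL cells. The ratio of CDC6 to CDT1 for knockdown in C4-2B without TG was -0.0615 with log2 of CPM + 1, and that of CDT1 to GMNN with TG in siMOCOS cells of C4-2B was -0.34 to 0.11 with 1 library left out (0.11 without siMOCOS with TG replicate 3). The causes were not tested. Counts over all genes moved over 1.5 times as well. The C4-2B interaction called 4 genes higher and 6 lower, and 0 to 39 and 0 to 46 over the alternatives, and the LNCaP interaction 1 and 0, against 0 to 31 and 0 to 24. The line difference in the TG response called 63 higher and 61 lower, against 26 to 130 and 37 to 116. That in the knockdown response with TG called 35 and 28, against 4 to 183 and 5 to 123, and without TG 20 and 3, against 8 to 60 and 1 to 39. Genes higher after knockdown numbered 1301 in C4-2B with TG (593 to 1700, 861 without siMOCOS with TG replicate 1) and 1284 without TG (675 to 1706), 1615 in LNCaP with TG (844 to 1851) and 829 without TG (496 to 1252), and genes lower in C4-2B numbered 1074 with TG (622 to 1551) and 1150 without TG (762 to 1588). Library size only moved the median of all genes by 0.15 in the siCTRL line difference, more than 0.1, so differences there are relative to it. With the replicate block, TG in siCTRL cells gave 2 higher and 2 lower in C4-2B (MCM4 lost, adjusted p = 0.136) and 1 higher and 6 lower in LNCaP (MCM5 gained, log2 -0.35, adjusted p = 0.0446). The same-numbered libraries deviated together with r between -0.52 and 0.25 in C4-2B and between -0.16 and 0.30 in LNCaP. A pairing by number was thus not shown, and these values cannot exclude it. No replicate block was possible for knockdown, because its columns carry no label number.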
